A study of Mus musculus with 2 samples.

Results

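Chemokines are small secreted proteins that steer leukocytes by binding heptahelical receptors coupled to inhibitory G proteins. They are grouped as CC, CXC, CX3C and XC by the spacing of their first cysteines, and many ligands share receptors. In liver they are made by hepatocytes, endothelium and resident macrophages (Kupffer cells) as well as by the leukocytes they recruit, and most receptors are carried by leukocytes. The members described here were all non-control probes whose gene name began with Ccl, Cxcl, Ccr, Cxcr, Cx3cl, Cx3cr, Xcl or Xcr followed by a digit: 69 probes of 39424 on the array, for 54 genes of 31042. Of these genes, 35 encode ligands and 19 receptors. They were taken by gene name.

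Liver RNA was compared between Pnpla8-/- mice (KO) and Pnpla8+/+ mice (WT), both of strain C57BL/6N. PNPLA8 is a phospholipase that cleaves membrane phospholipids, among them phosphatidylcholine, and the series' title places it in the supply of choline and methyl groups. Each genotype was a single pool of equal RNA amounts from 5 animals, hybridised to 1 one-colour array. The sample labels give an age of 6 weeks, the series' design text 8 weeks, and the sources used here do not settle which holds.

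With 1 array per genotype there was no replicate across mice, so no test was made and no p-value is given. Differences are described at a fixed size of 2-fold, beside the share of all measured genes that reach it. The only errors at hand are technical: the scanner software's error for each spot, the spread between repeat spots of a probe, and the spread between probes of a gene. The SD of the log2 ratio between repeat spots was 0.04 over 268 probes spotted repeatedly, and between probes of a gene 0.10 over 4286 genes. All log2 ratios are KO over WT, after each array was set to its own 75th percentile of processed signal. That percentile was 1018 units on the KO array and 1207 on the WT array, so a processed signal is compared between arrays only through the scaled ratio.

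Both arrays lay on 1 slide and had the same scan time. Of 43020 non-control spots, 65.6% passed the background criterion on the KO array, against 70.1% on the WT array, and 0 were saturated on either. Pnpla8 itself gave a processed signal of 4.45 in the KO pool, not well above background, against 144 in the WT pool, at least 6.81-fold lower in KO. Whether its probe lies in the deleted part of the gene was not analysed here. Hepatocyte markers had a median log2 ratio of 0.29, with 1 of 6 at least 2-fold higher (Tat at 1.32, background 1.29%) and Cps1 at 0.99. Their summed processed signal, not scaled, was 1178310 in the KO pool and 1135650 in the WT pool.

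The measurement behind each ratio is hybridisation to a probe of 60 bases. The opening 30 bases, 5′ to 3′, are given for 1 probe of each of the genes that differed most, and for Ccl9, which differed in the opposite direction. Positions are those of the whole probe in mm9, the build in the array files. Which exon or untranslated region each probe lies in was not analysed here.
Ccl2, chr11:81850650-81850709, plus strand: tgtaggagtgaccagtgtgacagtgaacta
Ccl5, chr11:83339296-83339355, minus strand: tctcagctgctccgaggctctgcacagcaa
Ccl9, chr11:83388223-83388282, minus strand: caactaggatgaaataaattctgccttagc
Ccl24, chr5:136046667-136046726, minus strand: ccaaggcagtgagaaccaagtttgctgtcc
Cxcl9, chr5:92752191-92752250, minus strand: atgggatttcattattaacttgatcccatc
Cxcl10, chr5:92775781-92775840, minus strand: gctttgcattgtatatggaagaacttgtgt
Ccr2, chr9:124022948-124023007, plus strand: gaagcagggacagaattcttgctttgaaaa

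Chemokine and receptor transcripts were mostly lower in the KO pool. Of the 54 genes, 30 were well above background on both arrays, and 7 of these were at least 2-fold lower in KO, where 1.85% of all 19951 measured genes were. None of the 30 was at least 2-fold higher, against a background of 1.29%. In all, 23 of the 30 had a log2 ratio below 0, against a background of 43.1%. The median log2 ratio was -0.47 over the members and 0.04 over all measured genes. Those described here are the ligands Ccl2, Cxcl9, Cxcl10, Ccl5 and Ccl24 and the receptor Ccr2.

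A further 8 members were found in the WT pool only and 0 in the KO pool only. Among the 21893 genes detected on at least 1 array, 7.58% were found in the WT pool only and 1.29% in the KO pool only. The other 16 members were not well above background on either array. At the level of probes, 41 were well above background on both arrays, 10 on the WT array only and 18 on neither. The KO array's detection floor lay higher on the scaled log2 scale, at -5.83, against -6.36 on the WT array. Negative controls were likewise higher, at -7.90 on the KO array and -8.42 on the WT array, and the part of this offset in the WT-only calls was not tested.

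**Figure D1:**
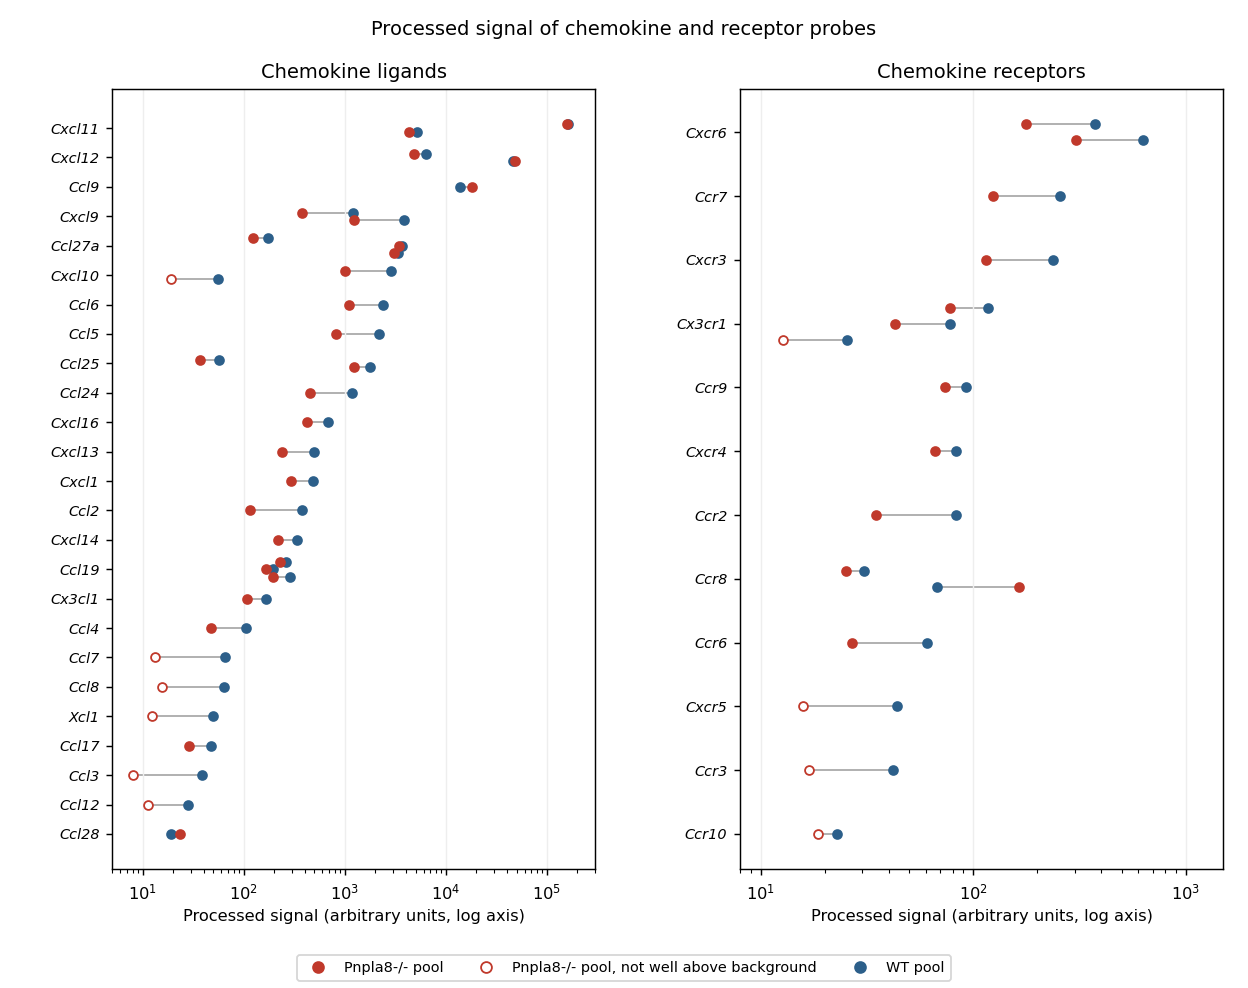
Processed signal (arbitrary units, log axis) of the member probes described here that were well above background on at least 1 array, KO pool in red and WT pool in blue, with 1 line per probe. Open red points mark KO signals that were not well above background. Signals of different probes are not comparable. The signals are not scaled between arrays, whose 75th percentiles were 1018 units (KO) and 1207 units (WT), so a gap within a line is not the scaled ratio. For example, 1 Ccl27a probe gave 3038 in the KO pool and 3329 in the WT pool, but a scaled log2 ratio of 0.11.

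The ligands of CCR2, the receptor that draws monocytes from blood into inflamed tissue, stood among the lowest members. Ccl2, spotted 10 times on each array, gave a processed signal of 115 ± 7.48 in the KO pool and 374 ± 17.8 in the WT pool (SD between spots). Its log2 ratio was -1.45, which is 2.74-fold lower in KO, with an SD of 0.07 between repeat spots, and the spots of the 2 arrays were far apart. Ccl7 gave 13.3 in the KO pool, not well above background, and 64.8 in the WT pool, at least 3.05-fold lower in KO. Ccl8 gave 15.4 in the KO pool and 63.7 in the WT pool, at least 3.0-fold lower. Ccl12 was dim in the KO pool too, and its limit of 1.33-fold stayed short of 2-fold. All 4 genes of this group were thus on the low side, but Ccl2 alone was measured on both arrays.

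CCL3, CCL4 and CCL5 are inflammatory CC ligands, and CCL6 and CCL9 are mouse ligands of CCR1. Ccl5, made by activated T cells and NK cells, gave 815 in the KO pool and 2200 in the WT pool, a log2 ratio of -1.19 (2.28-fold lower, technical error 0.20). Ccl4 at -0.93 and Ccl6 at -0.90 stood just within 2-fold, and Ccl4 at -0.36 under normexp. Normexp is another background correction, run here with an offset of 50 units added to every signal. Ccl3 was found in the WT pool only, at least 1.82-fold lower in KO. Ccl9 went the other way, with 18275 in the KO pool against 13839 in the WT pool, a log2 ratio of 0.65 (1.57-fold higher, technical error 0.20). It was the highest ratio among the ligands and lay within 2-fold.

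CXCL9 and CXCL10 are interferon-induced ligands of CXCR3, the receptor of activated T cells and NK cells. The first Cxcl9 probe gave 1237 in the KO pool and 3877 in the WT pool, and the second gave 381 in the KO pool and 1211 in the WT pool. Their log2 ratios were -1.40 and -1.43, so the 2 probes, at separate positions, differed by less than the spread between probes of a gene. For Cxcl10 the signal was 1007 in the KO pool and 2890 in the WT pool, a log2 ratio of -1.28 (2.42-fold lower, technical error 0.20). Its second probe was dim in KO, with 19.0 in the KO pool and 56.0 in the WT pool. The gene of the remaining CXCR3 ligand, Cxcl11, which carries an inactivating frame shift in C57BL/6 mice, had a log2 ratio of 0.10.

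The 2 probes of Cxcl11 differ in how widely their bases occur. One of them gave 158834 in the KO pool and 162781 in the WT pool, and the other gave 4295 in the KO pool and 5151 in the WT pool. The brighter probe holds a stretch of 20 bases that occurs within the promoter windows of 14 genes among 27025 with a promoter sequence, and 5 other probes of the array share a stretch of that length with it. Bases of this kind belong to the B1 family of repeats, which is spread throughout the mouse genome. In the 30 bases below, which begin at base 15 of that probe, capitals mark the shared stretch. The other probe shares no such stretch with any promoter, and it had a log2 ratio of -0.02.
Cxcl11, chr5:92788567-92788626, minus strand: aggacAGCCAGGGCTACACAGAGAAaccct

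CCL24 is an eosinophil attractant that acts on CCR3. Ccl24 gave 455 in the KO pool and 1182 in the WT pool, a log2 ratio of -1.13 (2.19-fold lower, technical error 0.20). The other CCR3 ligands on the array, Ccl11 and Ccl26, were not well above background in either pool. Xcl1, the ligand of XCR1 on cross-presenting dendritic cells, gave 12.3 in the KO pool and 49.0 in the WT pool, at least 2.31-fold lower in KO. Cxcl13, which guides B cells through CXCR5, stood at -0.80, with 239.5 in the KO pool and 495 in the WT pool.

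The ligands of CXCR4, CCR9, CXCR6, CCR4 and CX3CR1, with Cxcl1 and Cxcl14, had ratios within 2-fold. Cxcl12, the CXCR4 ligand that holds leukocytes and progenitors in tissue, had probes at 0.32 and -0.16, so its direction depends on the probe. Ccl25, the CCR9 ligand of thymus and gut, had probes at -0.28 and -0.40. Cxcl16, a membrane-bound CXCR6 ligand, stood at -0.44, the neutrophil attractant Cxcl1 at -0.45, and the CCR4 ligand Ccl17 at -0.46. Cx3cl1, the membrane-bound ligand of CX3CR1, and Cxcl14 both stood at -0.39. Under normexp Ccl17 stood at -0.01, Cx3cl1 at -0.14 and Ccl25 at -0.16.

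The measured ligands of CCR7 and CCR10 had gene medians at or above 0, but Ccl19 and Ccl27a each had a probe below it. The gene-name rule found no probe for the other ligands of these receptors, Ccl21a, Ccl21b, Ccl21c and Ccl27b. Whether another probe measures them was not analysed here. Ccl19, a CCR7 ligand, had 3 probes from -0.34 to 0.06 at 3 sites of chromosome 4, where mouse strains carry near-identical gene copies, so its ratio as a single gene is uncertain. Ccl27a, a CCR10 ligand of the same region, had 3 probes from -0.25 to 0.14. Ccl28, also a CCR10 ligand, had a log2 ratio of 0.54, but its signals of 23.4 in the KO pool and 19.1 in the WT pool lay close to the detection floor and its technical error was 0.42. Of the neutrophil-attracting CXCR2 ligands, Cxcl2, Cxcl3, Cxcl5 and Cxcl15 were not well above background in either pool, nor were Ccl1, Ccl20, Ccl22 and Cxcl17. None of these has a ratio.

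Receptors were on the low side in 9 of the 10 cases measured, with 2 at least 2-fold lower (backgrounds of 43.1% and 1.85%). Ccr2 gave 34.7 in the KO pool and 83.1 in the WT pool, a log2 ratio of -1.02 (2.02-fold lower, technical error 0.30). Its call sits at the threshold and ends under other processing. Ccr2 stood at -0.95 when arrays were set to their median, -0.98 after quantile normalization and -0.33 with normexp and its offset of 50 units. Ccr6, a receptor of B cells and Th17 cells, stood within 2-fold at -0.94, and at -0.19 under normexp.

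The lymphocyte receptors Cxcr6, Cxcr3 and Ccr7 had nearly the same log2 ratio. Cxcr6, found on resident T and NKT cells, had 2 overlapping probes at -0.81 and -0.84. Cxcr3 stood at -0.81, with 114 in the KO pool and 238 in the WT pool, and Ccr7, the lymph node homing receptor, at -0.81, with 123.5 in the KO pool and 256 in the WT pool. Cx3cr1, carried by patrolling monocytes, had measured probes at -0.35 and -0.61, and another probe was dim in KO. Under normexp Cxcr6 stood at -0.64, Cxcr3 and Ccr7 at -0.48 each and Cx3cr1 at -0.14. Cxcr4 and Ccr9 stood at -0.08 each, within their technical errors of 0.23 and 0.22.

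Ccr8, a receptor of regulatory and type-2 T cells, was the sole receptor above 0, and its probes disagreed. The first probe gave 164 in the KO pool and 67.9 in the WT pool, a log2 ratio of 1.52. The second gave 25.1 in the KO pool and 30.6 in the WT pool, a log2 ratio of -0.04. The gene's median of 0.74 therefore describes neither probe, and its ligand Ccl1 was not well above background. Cxcr5, the follicular receptor, was found in the WT pool only, at least 2.06-fold lower in KO, while Ccr3 at 1.98-fold and Ccr10 at 1.03-fold had limits inside 2-fold. Ccr1, Ccr1l1, Ccr4, Cxcr1, Cxcr2 and Xcr1 were not well above background in either pool.

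**Figure D2:**
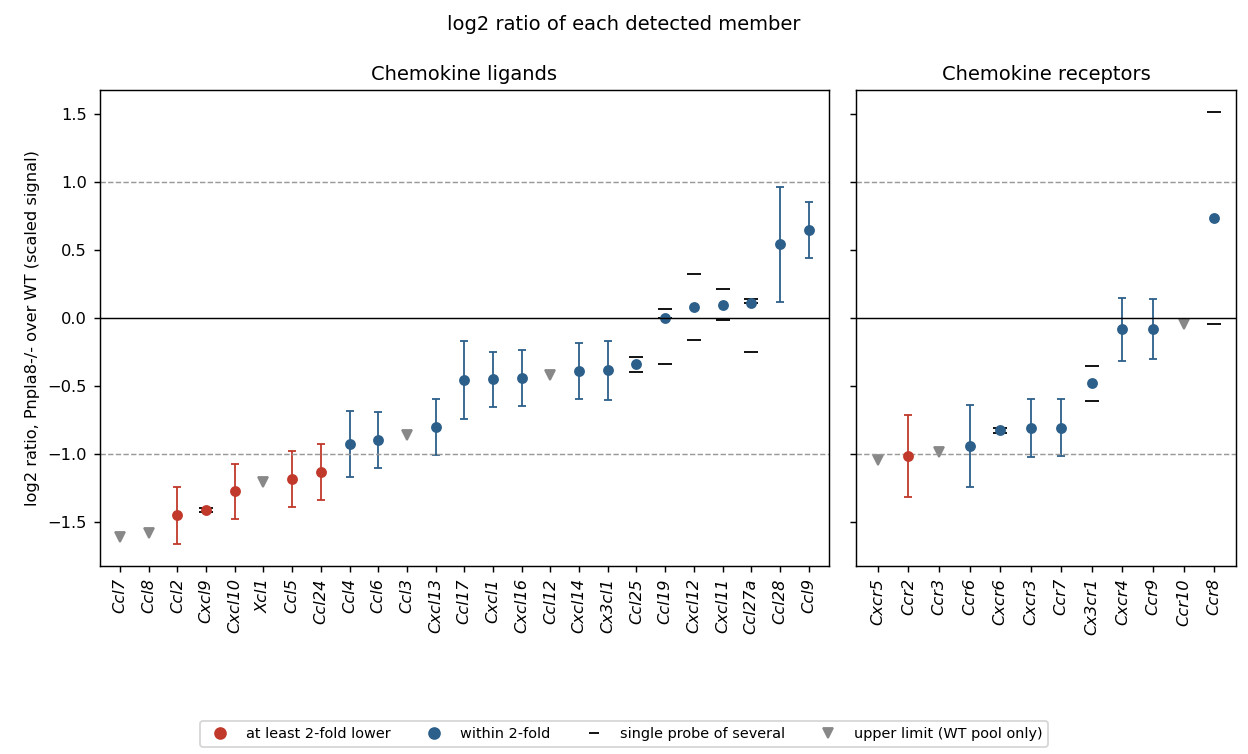
log2 ratio (KO over WT, scaled signal) of the members described here that were detected on at least 1 array, ligands left and receptors right. Bars are the scanner software's technical error for genes with 1 measured probe, dashes are the single probes of genes with several, grey triangles are upper limits for genes found in the WT pool only, and dashed lines mark 2-fold. The 6 red points lie between -1.02 and -1.45.

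In all, 4 of the 8 limits reached 2-fold lower in KO, namely those of Ccl7, Ccl8, Xcl1 and Cxcr5. Among all 1659 genes found in the WT pool only, 9.4% had a limit that reached 2-fold. No member was found in the KO pool only, where 66.8% of all 283 such genes had a limit of at least 2-fold higher. These limits depend on the processing: with normexp and its offset of 50 units all 8 lay between -0.44 and 0.21, and 0 reached 2-fold. The 8 WT signals ran from 22.8 (Ccr10) to 64.8 (Ccl7). An offset of 50 units draws ratios of such signals towards 0, so normexp could hardly have kept these limits. The member limits are therefore statements about signals near background. They also carry no technical error. Cxcr5, whose limit of -1.05 was the closest of the 4 to the threshold, had a WT signal of 43.8 with a technical error of 5.4.

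Ligands and receptors were then set against each other. The 20 measured ligands had a median log2 ratio of -0.45, with 5 at least 2-fold lower and 14 below 0. The 10 measured receptors had a median of -0.81, with 2 at least 2-fold lower and 9 below 0. The backgrounds for both classes were 1.85% at least 2-fold lower and 43.1% below 0. The receptor median minus the ligand median was -0.36 on the log2 scale, but the order turned under normexp, where the receptor median was 0.07 above the ligand median. The normexp offset of 50 units draws the ratios of dim signals towards 0 most. Measured receptors were the dimmer class, with a median scaled log2 signal of -3.82 against -1.31 for ligands. The part of the offset in this turn was not tested. No order between the classes can be read from these data. Among ligands the 11 measured CC genes had a median of -0.46 and the 8 measured CXC genes -0.45.

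The count was also read by brightness, splitting all measured genes at their median signal. Among members below it, 3 of 20 were at least 2-fold lower, against a background of 2.64%. Among members above it, 4 of 10 were, against a background of 1.06%. The median log2 ratio was -0.47 over the dimmer members and -0.67 over the brighter ones.

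**Figure D3:**
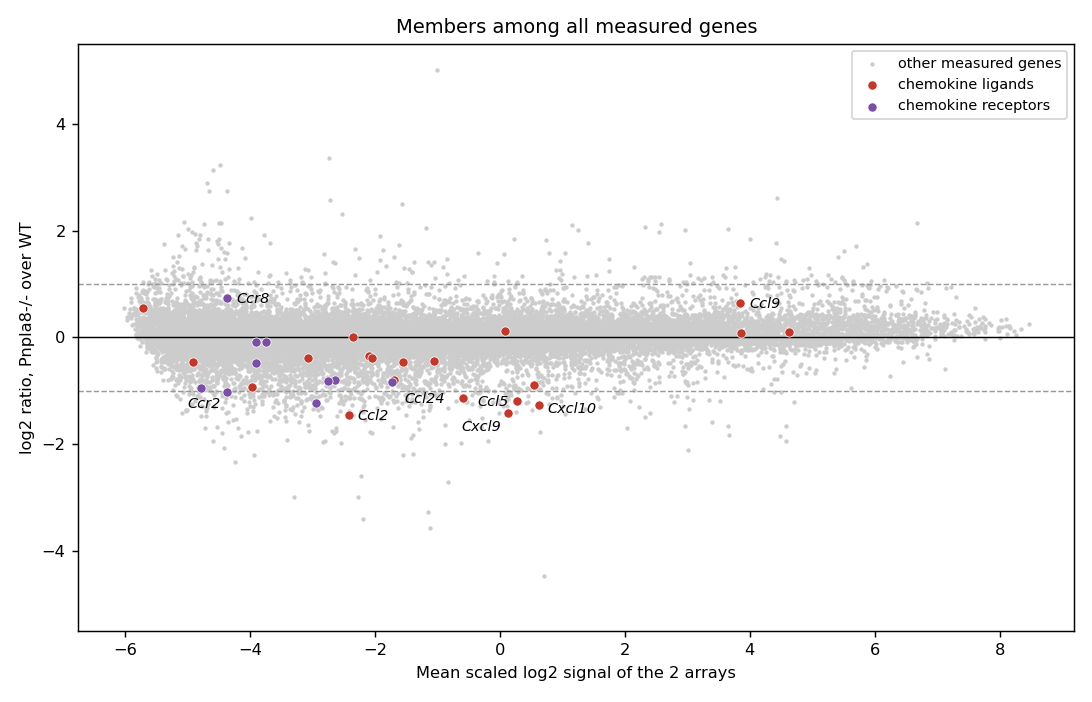
log2 ratio (KO over WT) against the mean scaled log2 signal of both arrays for all 19951 measured genes (grey), with the 20 measured chemokine ligands in red and the 10 measured receptors in purple. Dashed lines mark 2-fold; the 7 lower members spread over both the dim and the bright range, and Ccl9 and Ccr8 stand highest.

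Ligand and receptor ratios can be set side by side as log2 values. Both sides were at least 2-fold lower for Ccl2 (-1.45) and Ccr2 (-1.02), but Ccr2 sat at the threshold and stood at -0.33 under normexp. The receptor had the lower ratio for Cxcr6 (-0.83) beside Cxcl16 (-0.44) and for Ccr7 (-0.81) beside Ccl19 (0.00). Ccl19 was the only CCR7 ligand measured, with probes from -0.34 to 0.06. Cx3cr1 (-0.48) and Cx3cl1 (-0.39) differed by less than the technical error of Cx3cl1, 0.22. Both sides lay near 0 for Cxcl12 (0.08) and Cxcr4 (-0.08). The ligand had the lower ratio for Cxcl9 (-1.41) and Cxcl10 (-1.28) beside Cxcr3 (-0.81), and the receptor for Cxcr3 beside Cxcl11 (0.10). Ccl25 stood at -0.34 beside Ccr9 at -0.08, and Cxcl13 at -0.80 beside Cxcr5, whose limit was -1.05.

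Many members lie in tandem gene clusters, which arose by duplication. In the CC ligand cluster of chromosome 11 (chr11:81850650-83478111 in mm9, from probe positions), 5 of 11 genes were measured, with a median log2 ratio of -0.93 and 2 at least 2-fold lower. Within it Ccl9 (0.65) stood beside Ccl6 (-0.90), the next member along the chromosome. In the CXC ligand cluster of chromosome 5 (chr5:91190490-96389920), 5 of 9 genes were measured, with a median of -0.80 and 2 at least 2-fold lower, the neighbours Cxcl9 and Cxcl10. Both clusters also held genes that were not well above background in either pool.

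**Figure D4:**
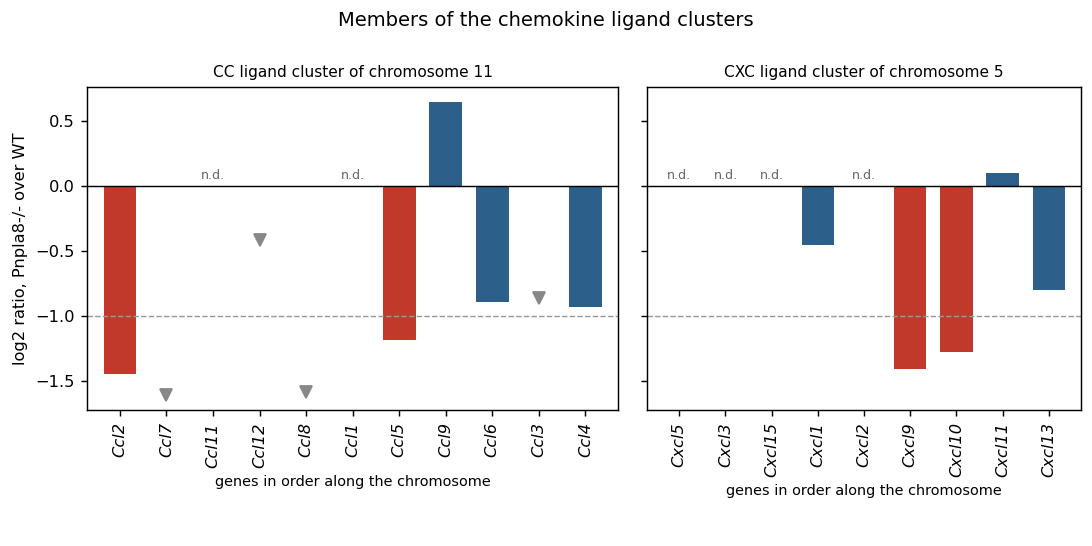
log2 ratio (KO over WT) of members in the ligand clusters of chromosomes 11 and 5, in order along each chromosome. Red bars are at least 2-fold lower, blue bars lie within 2-fold, grey triangles are upper limits for genes found in the WT pool only, and n.d. marks genes not well above background in either pool; Ccl9 is the tallest bar above 0.

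The bases before the start sites of Cxcl9 and Cxcl10 are shown because these neighbours differed alike. The 250 bases before each start are from RefSeq (GRCm38.p6), both on the minus strand, with capitals for motif matches. The motifs searched, on both strands, were the core of the interferon-stimulated response element (GAAA, any 2 bases, GAAA), the gamma-activated site (TTCNNNGAA) and the NF-kappaB site. Cxcl10 has 1 match to the interferon element and 3 to the NF-kappaB site, of which 2 overlap, and Cxcl9 has 1 to the NF-kappaB site.
Cxcl9, chr5:92328080-92328329: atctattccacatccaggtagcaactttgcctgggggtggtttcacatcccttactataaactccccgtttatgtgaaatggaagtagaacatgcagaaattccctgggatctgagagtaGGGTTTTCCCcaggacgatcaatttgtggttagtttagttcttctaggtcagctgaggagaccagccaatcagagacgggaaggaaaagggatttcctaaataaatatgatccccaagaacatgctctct
Cxcl10, chr5:92348890-92349139: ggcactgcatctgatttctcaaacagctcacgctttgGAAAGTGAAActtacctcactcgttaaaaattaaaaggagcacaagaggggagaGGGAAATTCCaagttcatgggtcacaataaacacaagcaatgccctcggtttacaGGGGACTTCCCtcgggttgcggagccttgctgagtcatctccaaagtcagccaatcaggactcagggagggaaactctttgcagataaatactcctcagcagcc

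Across the members, 39 genes had a promoter sequence in the table. The NF-kappaB site was found in 15 of them, where 15.4% of all 27025 genes with a promoter had it. The interferon element was found in 3 (Ccl19, Cxcl10 and Cxcl14), where 3.46% of genes had it, and the gamma-activated site in 4, where 8.13% did. Among the lower members a sequence was found for Ccr2, Cxcl9 and Cxcl10. Members with an NF-kappaB match included Ccl9, whose ratio lay above 0, and Cxcl2 and Cxcl3, which were not detected.

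Other genes of the chemokine system were read from a list of 49, of which 43 were measured on both arrays. Of these, 7 were at least 2-fold lower in KO, 0 were at least 2-fold higher and 38 were below 0, with a median log2 ratio of -0.40, beside the same backgrounds of 1.85%, 1.29% and 43.1%. Among proteins that carry the receptor signal to the cytoskeleton, 4 of 16 were at least 2-fold lower, among them Dock2 (-1.41), an activator of Rac in leukocytes, the leukocyte GTPase Rac2 (-1.22) and its activator Vav1 (-1.09). The Dock2 ratio rests on 1 probe, whose signal of 18.3 in the KO pool lay close to that array's detection floor of 17.9. Rac1, the widely expressed counterpart of Rac2, stood at 0.10, and the G protein genes Gnai2 and Gnai3 at -0.22 and -0.04. Rgs2, which ends G protein signalling, was the sole desensitising gene of 8 at least 2-fold lower (-1.24).

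Regulators that induce chemokines were lower in part. Il1b (-1.30), an inflammatory cytokine, and Irf7 (-1.08), an interferon-response factor, were at least 2-fold lower among 9 measured (background 1.85%). Ifng, the inducer of Cxcl9 and Cxcl10, gave 10.4 in the KO pool, not well above background, and 66.1 in the WT pool, at least 3.12-fold lower in KO. Irf1 stood at -0.64, while the NF-kappaB subunit genes had Relb at -0.66, Nfkb2 at -0.15, Rela at -0.11 and Nfkb1 at -0.04. Nfkbia, which encodes their inhibitor, stood at 0.42. The scavenging receptors Ackr1 (-0.57), Ackr2 (-0.36) and Ackr3 (-0.75) stood below 0, as did the platelet chemokines Pf4 (-0.33) and Ppbp (-0.40), and the ligand-trimming proteases Dpp4 (0.28), Adam10 (-0.23) and Adam17 (-0.14) lay near it. Ackr4 had probes that disagreed, at 0.02 and 1.61, and none of these groups had a gene at least 2-fold lower.

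Leukocyte markers were mostly below 0 as well. All 11 Kupffer cell and macrophage markers were below 0, 5 of them at least 2-fold lower (backgrounds of 43.1% and 1.85% of all measured genes), with a median of -0.93 and a summed processed signal of 55842 in the KO pool and 135694 in the WT pool. Monocyte markers, of which Ccr2 is one, had a median of -0.96 with 2 of 4 at least 2-fold lower and sums of 3293 in the KO pool and 6472 in the WT pool. The integrin gene Itgam stood at -0.07, but its 3 probes disagreed, from -0.69 to 0.48. Most of the monocyte sums is Itgam, with 2896 in the KO pool and 5550 in the WT pool. The summed signals of marker lists are not scaled between arrays.

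Lymphocyte and granulocyte markers were more mixed. The counts below stand beside the background of 1.85% of all measured genes at least 2-fold lower. T cell markers had a median of -0.88 with 2 of 5 measured at least 2-fold lower and sums of 13224 in the KO pool and 17586 in the WT pool, and Cd8a was well above background in the WT pool only. Most of the T cell sums is Cd4 (log2 ratio 0.04), with 11882 in the KO pool and 15481 in the WT pool. Cd3d stood at -1.35 and Cd3g at -1.02, but Cd3e, brighter than both at 944 in the KO pool and 1165 in the WT pool, stood at -0.06. B cell markers had a median of -0.91 with 1 of 4 at least 2-fold lower and sums of 499 in the KO pool and 1152 in the WT pool. NK cell markers had a median of -0.70 with 0 of 4 at least 2-fold lower and sums of 2526 in the KO pool and 3501 in the WT pool, with Ncr1 not well above background in either. The NK cell marker Nkg7 had probes that disagreed, at -1.35 and -0.04. Among neutrophil markers S100a8 (-1.75) and S100a9 (-1.65) were lower but the median of 5 was -0.19, the sums were 1876 in the KO pool and 3258 in the WT pool, and Ngp was not well above background. Dendritic cell markers had a median of -0.27 with 1 of 5 at least 2-fold lower and sums of 51691 in the KO pool and 52020 in the WT pool, with Xcr1 not well above background. Most of these sums is Siglech, with 51193 in the KO pool and 51178 in the WT pool, whose probes stood at -0.79 and 0.25.

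Markers of cells fixed in the tissue had medians of 0.02 for sinusoidal endothelium, -0.32 for stellate cells and -0.11 for cholangiocytes. In these lists 0 genes were at least 2-fold apart, beside backgrounds of 1.85% lower and 1.29% higher. The stellate cell median was further from 0 than those of dendritic cells (-0.27) and neutrophils (-0.19). The summed signals in the KO and WT pools were 39731 and 51979 for endothelium, 46279 and 54411 for stellate cells, and 285 and 351 for cholangiocytes. In bulk liver RNA, fewer leukocytes and less RNA of these genes per leukocyte cannot be told apart. The part of the marker differences in the chemokine and receptor ratios was not tested.

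**Figure D5:**
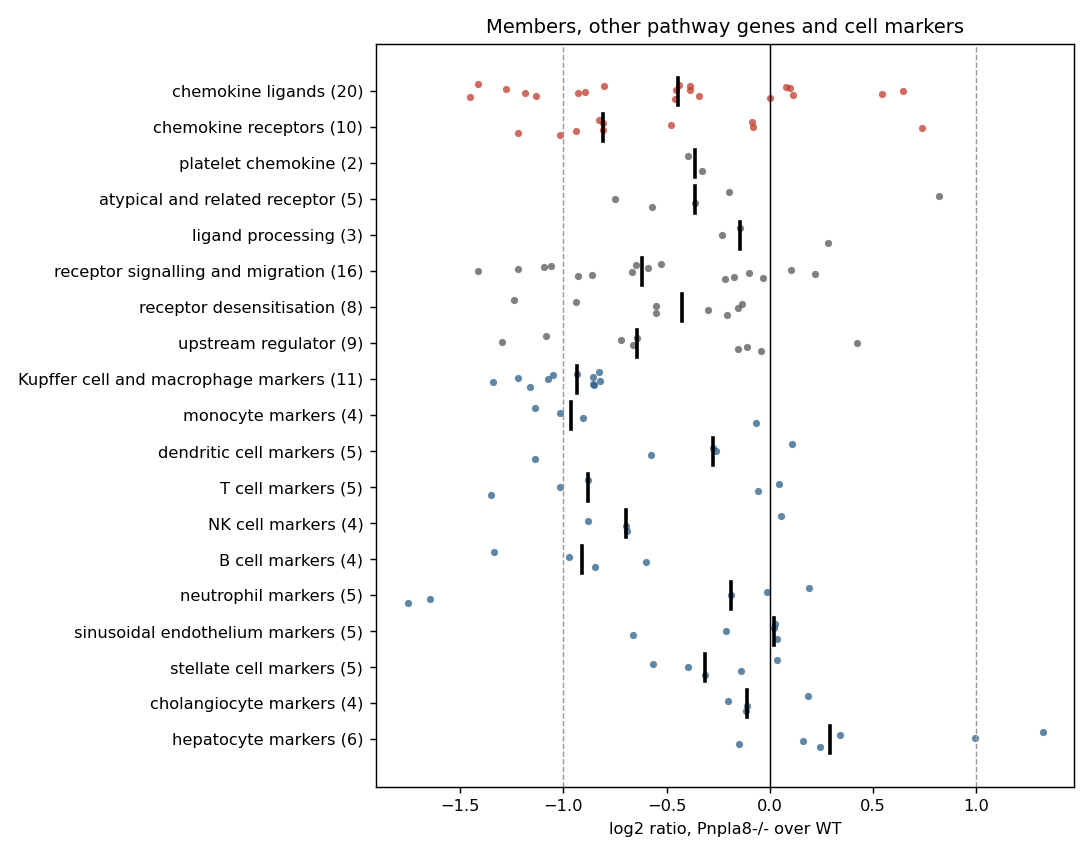
log2 ratio (KO over WT) of each measured gene (points) and the median (black bar) for chemokine ligands and receptors (red), other chemokine-system genes (grey) and cell type markers (blue), with the number measured in brackets. Dashed lines mark 2-fold; the medians are -0.45 for ligands, -0.81 for receptors, -0.93 for macrophage markers and 0.29 for hepatocyte markers.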

How the data were processed

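Liver RNA of 5 pooled KO and 5 pooled WT mice was measured on 1 array each, grouped by the genotype in the labels. Per the labels' protocols, the Cy3 label was added during amplification of 200 ng RNA. Per the submitters' processing notes, the authors read spot intensity with version 11.5.1.1 of Agilent Feature Extraction. The deposited scanner files hold each spot's intensity, raw and background-subtracted, on a linear scale. The deposited value table holds processed intensity divided by 1019 (KO) and 1207 (WT), with column medians of 0.0763 (KO) and 0.0800 (WT), linear and not centred. The number of other sample columns left unused was 0.

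For each array, log2 of processed signal minus its 75th percentile over non-control spots was used. Spots with an outlier mark (170 on the KO array and 119 on the WT array) were left out. Spots of a probe were averaged, and a gene's ratio is the median over its probes well above background on both arrays. A gene found on 1 array was given a limit, its bright value over either the dim array's detection floor or the dim probe's value, whichever was greater. The floor is the lowest signal of any probe well above background on that array. No technical error enters a limit, so each "at least" fold is nominal. Genes were named through RefSeq accessions (28326 probes) or names (2378), and 8720 probes kept the file's name. For members 64 probes matched by accession and 0 changed symbol. Ratios were checked on simulated data, made from the WT array with the same background calls on both simulated arrays. That check therefore did not cover genes found on 1 array or their limits. Python 3.11.15, R 4.3.3 and limma 3.58.1 were used.

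Some genes are counted but not reported here by name. Every other detected member is named under its role, undetected members by name only, and other pathway genes by group with those past 2-fold. Members, roles, pathway list and markers were chosen with earlier results of these data known. Alternatives were other scalings, background correction (normexp with an offset of 50 units), filters, probe summaries and size thresholds. The number of arrays limits the precision.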

Additional observations from a re-analysis of the deposited data

How the results depend on the processing

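No paired analysis was possible because each group has 1 array and the result comes from no test. Ccl2, Ccl5, Ccl24, Cxcl9 and Cxcl10 were at least 2-fold lower in KO under all 12 alternative scalings, background corrections, filters and probe summaries tried. Ccr2 was so in 8 of the 11 that kept its probe. Several of these settings could not move such a result. Ccl2, Ccl5, Ccl24 and Ccr2 have 1 probe each, so filters that keep it and probe summaries leave the ratio unchanged. The deposited values differ by a constant per array, which scaling removes. For these genes the count of settings therefore overstates how far the result was tried. The count of lower members, 7 of 30 as reported, was 14 with no scaling, 14 of 54 with no filter on dim probes, 14 at 1.5-fold and 2 at 2.5-fold. Otherwise it lay between 5 (normexp) and 10 (E1A spike-in controls). The share of all genes at least 2-fold lower moved too, from 1.85% to 3.80% with no scaling and 3.98% with no filter. It was 0.64% with normexp and 3.05% with E1A scaling, and no share is given for 1.5-fold and 2.5-fold. The count of higher members, 0 as reported, was 2 at 1.5-fold, 2 with no filter on dim probes and 1 with the brightest probe of each gene. Over all genes, 994 of 31042 were at least 2-fold higher with no filter and 278 of 19951 with the brightest probe. The ligand median was -0.69 with no scaling, -0.61 with scaling to E1A spike-in controls and -0.33 with normexp. The receptor median was -1.05 with no scaling, -0.97 with E1A scaling, -0.26 with normexp and -0.61 with no filter on dim probes. The all-gene median itself moved to -0.21 with no scaling and -0.12 with E1A scaling. Both settings shift every ratio by the same constant, so the 24 of 30 members below that median could not change from the main setting. Ratios near 0 (Cxcl11, Cxcl12, Ccl19, Ccl27a, Cxcr4 and Ccr9) took either sign. Without Cxcl11 and Ccr8, chosen after seeing the data, 7 members were lower and the medians were -0.45 for ligands and -0.81 for receptors. Neither gene was among the lower members (0.10 and 0.74), so leaving them out could not change the count of 7. The cause of these shifts was not tested. For genes near background on the KO array a limit alone is given.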
